A study of Mus musculus with 102 samples.

Results

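In epidermal stem cells of aged mice on control diet, cells taken at ZT16 were compared with cells taken at ZT4. Zeitgeber time (ZT) counts the hours from lights on, so ZT4 lies in the light phase, when mice mostly rest, and ZT16 in the dark phase, when they are active. The comparison used 8 of the 49 arrays of aged mice in the series, which also holds 53 of adult mice, with 4 at each time chosen by their labels for age, diet and time point. All mice were Per1-Venus BAC transgenic animals on a C57B6/J background, in which the promoter of the clock gene Per1 drives a fluorescent protein, and these were 83 to 97 weeks old at collection. They had entered an adaptation period of 3 weeks at 55 to 69 weeks of age and then ate control diet ad libitum for 25 weeks. Other groups used below included the 16 arrays of other aged mice on control diet, collected at ZT0, ZT8, ZT12 and ZT20. There were also adult mice of 47 to 57 weeks on the same diet (4 arrays at each of ZT16 and ZT4). A further group was aged mice under calorie restriction (CR, 4 arrays at ZT16 and 3 at ZT4). All were of the same genotype. Each array held 1 sample. The labels name epidermis as the tissue and epidermal stem cells as the source.

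The circadian clock is a feedback loop in which the activators Clock or Npas2 and Arntl (Bmal1) bind E-box sequences and switch on the Per and Cry genes, whose proteins then repress the activators. A second loop runs through Nr1d1, Nr1d2 and the Ror genes, and the PAR-bZIP factors Dbp, Tef and Hlf pass the rhythm on to genes with D-box sequences. In the basal layer of mouse skin the clock is known for timing the cell cycle, with DNA replication and cell division favoured at different times of day.

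Some differences between the arrays did not come from the time points alone. The level of Xist, which is transcribed from the inactive X chromosome of females, lay above the mean of 3 Y-linked genes on all 4 ZT16 arrays (by 6.80, 7.07, 0.79 and 7.10 log2 units) but on 1 of the 4 ZT4 arrays (by 6.81 on replicate 4, against -1.36, -1.36 and -2.76 on the others). The labels do not give sex, so time and sex are partly confounded in these 8 arrays. ZT4 replicate 2 stood apart: its correlation across genes with the other 23 aged control arrays averaged 0.902, against 0.964 to 0.980 for the others, and 1495 genes lay more than 1 log2 unit below their median on the other 23 arrays, against 507 more than 1 above. Mice killed on the same day shared 1 time point, and the labels do not say which array belongs to which day, so day and time cannot be told apart. Markers of basal keratinocytes were high at both times, with a mean over 7 genes of 11.3 to 11.8 on the ZT4 arrays and 11.5 to 11.7 on the ZT16 arrays (Krt5 12.4 and 12.4, Krt14 12.5 and 12.5). Of 11 bulge stem cell markers, Cd34, Lgr5 and Lhx2 were under the filter on low levels (log2 4.735). Krt15 (11.9 at ZT4 and 11.9 at ZT16), Cxcl14 (11.0 and 11.1) and Nfatc1 (8.8 and 8.8) were well above it. So were Postn (8.5 and 8.0) and Sox9 (7.9 and 7.2), while Tcf7l1 (5.8 and 5.8), Fgf18 (5.7 and 5.5) and Foxc1 (4.5 and 4.5) were lower. None of the tested genes of 14 marker lists was called. Lists for melanocytes, T cells, fibroblasts, endothelium, muscle and adipocytes averaged between 4.70 and 5.37 on every array of the 2 times, near the filter, and Ptprc (CD45) was under it. Single members lay higher, such as Mitf of melanocytes (7.5 at ZT4 and 7.5 at ZT16) and Fbln1 of fibroblasts (7.2 and 6.9). Lists for Langerhans cells and macrophages (5.32 to 5.56), suprabasal keratinocytes (8.32 to 8.97), Schwann cells (6.88 to 8.16) and erythrocytes (6.05 to 6.68) had higher means, and the ZT4 and ZT16 arrays overlapped in each. In the first of these, H2-Eb1 was at 7.6 at ZT4 and 7.5 at ZT16. Sebaceous gland markers averaged 5.87 to 6.26 and overlapped too, with Scd1 at 10.6 and 10.5. Within the suprabasal list, Krt1 (11.8 at ZT4 and 11.6 at ZT16), Krt10 (11.7 and 11.5) and Sbsn (10.9 and 10.8) were high too. Ivl (7.1 and 7.1) and Lor (6.0 and 7.9) were lower, and Flg was under the filter. The arrays of the times did not overlap for the hair shaft list (5.30 to 5.37 at ZT4, 5.22 to 5.28 at ZT16) or the adipocyte list (4.83 to 4.87 at ZT4, 4.70 to 4.76 at ZT16), of whose genes 2 of 9 and 3 of 4 were under the filter; their part in the results was not tested.

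At ZT16, 58 of 13383 tested genes (0.433%) differed from ZT4 at an adjusted p under 0.05 (limma on the 24 aged control arrays with a mean for each of the 6 times, Benjamini-Hochberg over all genes). Such genes are referred to as called. Of these, 30 (0.224% of those tested) were higher at ZT16, by 0.47 to 1.96 log2 units with a median of 0.80, and 28 (0.209%) were lower, by a median of 0.92 (range -1.68 to -0.57). The genes that rose included clock genes, DNA replication and repair genes and metabolic enzymes, and those that fell were led by genes of mitosis. The median over all genes was 0.02. At an unadjusted p under 0.05, 1331 genes were higher (9.95%) and 1033 lower (7.72%), where 669 in all would fall there by chance. The 4 ZT16 arrays did not overlap the 4 ZT4 arrays for 1000 genes (7.47%), among them 29 of the 30 called higher genes and 27 of the 28 called lower genes; the exceptions were Pitpnm2 and the olfactory receptor Olfr112.

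How many genes were called rested on single arrays. Without ZT16 replicate 2 none was called (1724 at an unadjusted p under 0.05), without ZT16 replicate 4 only Aspm was, and without ZT4 replicate 2 there were 10, of which 9 were among the 58 (Aspm, Tef, Tmem269, Pdxk, Per2, Aldh3a1, Cdt1, Baz1b and Cdkn3). Without ZT4 replicate 1 or replicate 4 the count was 312 or 143, and without ZT16 replicate 3 it was 96. With the sex covariate (Xist against Y-linked genes) 33 genes were called, 24 of them among the 58, with 9 higher and 24 lower. Arrays centred on their median gave 64, of which 41 were higher and 23 lower. All 58 kept their direction in each of these fits.

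**Figure D1:**
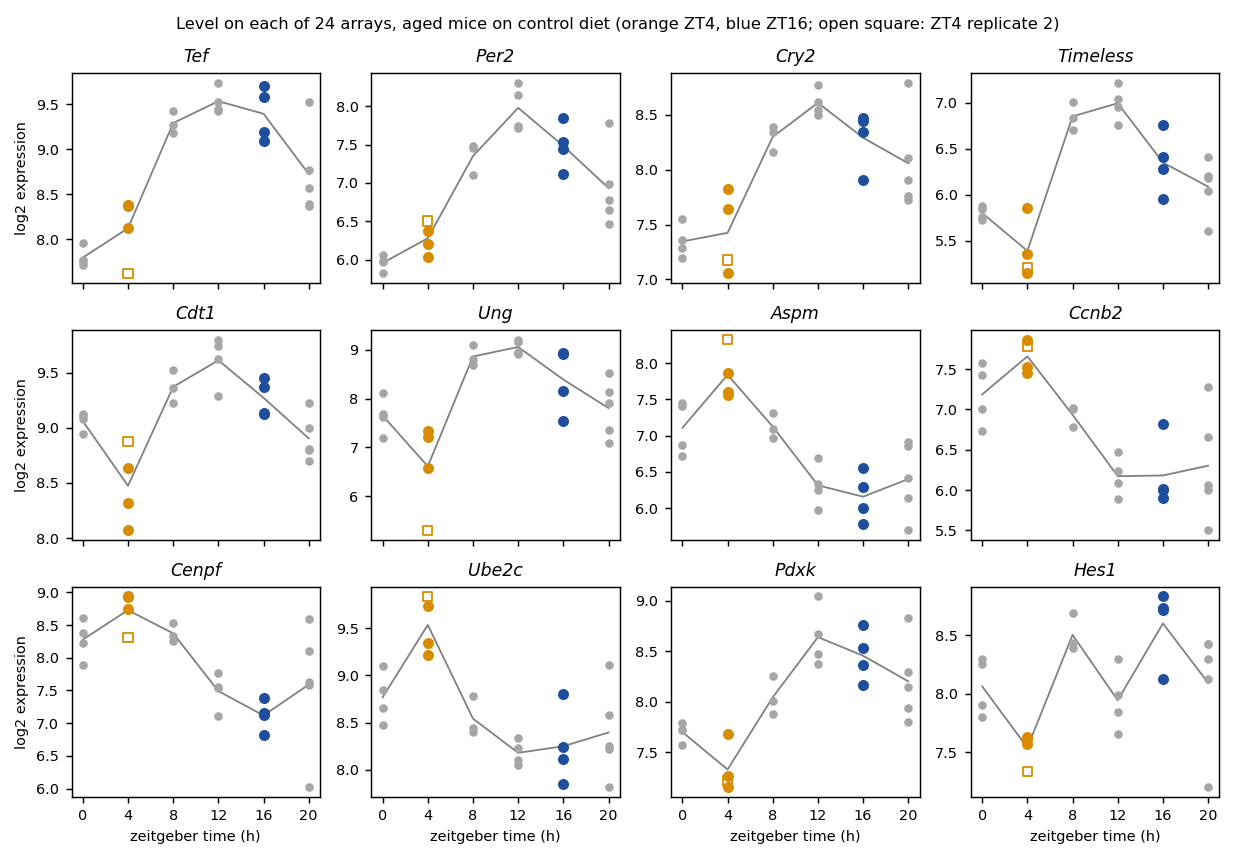
Log2 level of 12 genes on each of the 24 aged control arrays (vertical axis) against zeitgeber time in hours (horizontal axis). Orange points are ZT4 arrays (open square: replicate 2, which stood apart), blue points ZT16 arrays, grey points the other times, and the line joins the means of each time. In every panel the 4 blue points lie on 1 side of the 4 orange ones, above them for clock and replication genes and below them for the mitosis genes Aspm, Ccnb2, Cenpf and Ube2c.

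Among the clock genes, Per2, Cry2 and Tef were called higher at ZT16 and none was called lower. Tef, a PAR-bZIP activator, read 9.20, 9.71, 9.09 and 9.59 on the ZT16 arrays and 8.37, 7.62, 8.13 and 8.38 on the ZT4 arrays. Every ZT16 value was above every ZT4 value, and ZT4 replicate 2 was the lowest of the 8. The difference was 1.27 ± 0.20 log2 units (SE; 2.42-fold, limma adjusted p = 0.0138), and it was 1.10 without ZT4 replicate 2 (adjusted p = 0.0348).

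Per2, a repressor of the loop, read 7.85, 7.44, 7.12 and 7.54 at ZT16 and 6.03, 6.5, 6.38 and 6.20 at ZT4. The groups did not overlap, and ZT4 replicate 2 was the highest of its group. The rise was 1.21 ± 0.21 (limma adjusted p = 0.0230), and its mean was highest at ZT12 (7.98) and lowest at ZT0 (5.95). Cry2, the other called repressor, read 8.34, 8.45, 7.90 and 8.47 against 7.82, 7.18, 7.05 and 7.64. The lowest ZT16 value, of replicate 3, lay only just above the highest ZT4 value, of replicate 1. The rise of 0.87 ± 0.20 was close to the threshold (limma adjusted p = 0.0493) and was no longer called with the sex covariate (0.75, adjusted p = 0.0792) or without ZT4 replicate 2 (0.78, adjusted p = 0.141).

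Other clock genes did not pass the test. Per3 differed by 1.47 ± 0.42, a larger value than that of Per2, with a limma adjusted p of 0.0992. Its ZT4 arrays read 6.81, 8.16, 6.21 and 6.57, so replicate 2 was well above the rest and overlapped the ZT16 arrays (8.37, 8.68, 7.92 and 8.65). Dbp differed by 1.22 ± 0.38 (adjusted p = 0.120), with 4 close ZT4 arrays (5.99 to 6.25) and scattered ZT16 arrays (6.65 to 8.47). Hlf differed by 0.78 (adjusted p = 0.0951), Cry1 by 0.89 (0.146) and Ciart, a repressor of the Clock-Arntl pair, by 0.50 (0.0784); the ZT16 values of Ciart, 7.10 to 7.16, all lay above its ZT4 values of 6.37 to 6.84. Among the activators, Npas2 was at -0.54 (limma adjusted p = 0.0886), Clock at -0.29, Rora at 0.23 and Arntl at -0.03 ± 0.46 (0.980). The ZT16 values of Npas2, 7.59 to 8.21, all lay below its ZT4 values of 8.24 to 8.49. Other, dimmer probe sets were not tested on their own. They gave -0.67 for Npas2 and -0.50 for Arntl, and ran from -0.38 to 0.24 for Clock and from -0.12 to 0.34 for Rora. The remaining repressors gave 0.23 for Nr1d2 (0.58 on its other, dimmer probe set), -0.08 for Per1, -0.20 for Nfil3 and -0.49 for Bhlhe40. Across the 3 lists of clock genes, 3 of 16 tested members were called, all higher, where 0.224% of all tested genes were called higher. At an unadjusted p under 0.05, 5 of 9 repressors and all 3 PAR-bZIP genes were higher (9.95% of all genes). At that level 1 of 4 activators and 1 of 9 repressors were lower (7.72% of all genes).

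E-box and D-box sequences were looked for in the promoter windows of the called genes, since these are the sequences that clock proteins and PAR-bZIP factors bind. RefSeq windows (GRCm38.p6, 250 bases before to 50 after a start) were held for 22 of the 30 called higher genes and 25 of the 28 called lower genes. An E-box (CACGTG) was found in 4 of the 22 (18.2%) and 1 of the 25 (4%), and in 11.1% of the 10721 tested genes with a window. A D-box (TTATGTAA or TTACGTAA, either strand) was found in 2 of the 22 (9.09%), in none of the 25 and in 0.877% of all. The RORE, bound by ROR and REV-ERB proteins, was found in none of the 22 or the 25 and in 0.252% of all. No found match was shared between motifs, and a match is a description of the letters only. The stretches of 60 bases around the motif in called higher genes are shown 5′ to 3′ on the strand of the gene with the motif in capitals: for Tef at chr15:81802519-81802578 (+ strand), for Pdxk at chr10:78465096-78465155 (- strand), for Rpa1 at chr11:75348419-75348478 (- strand) and for Sec22c at chr9:121705171-121705230 (- strand) an E-box, and for Timeless at chr10:128237883-128237942 (+ strand) a D-box.
Tef: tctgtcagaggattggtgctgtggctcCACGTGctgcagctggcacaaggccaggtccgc
Pdxk: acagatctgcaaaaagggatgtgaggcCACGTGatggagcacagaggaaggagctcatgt
Rpa1: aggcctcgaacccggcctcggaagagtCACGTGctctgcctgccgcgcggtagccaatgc
Sec22c: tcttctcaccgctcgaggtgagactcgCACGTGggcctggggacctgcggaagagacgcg
Timeless: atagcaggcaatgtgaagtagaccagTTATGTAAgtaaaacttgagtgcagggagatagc
The E-boxes began 127, 180, 68 and 174 bases before the start in Tef, Pdxk, Rpa1 and Sec22c, and the D-box of Timeless 157 bases before. Not shown are the other D-box, 247 bases before the start of Baz1b, a chromatin remodelling gene, and an E-box 138 bases before another start of Tef.

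Among genes of DNA replication, Cdt1, Rpa1, Timeless and Ung rose at ZT16, and most others had positive differences that did not pass the test. Cdt1, which loads the MCM helicase at origins, read 9.12, 9.13, 9.37 and 9.46 at ZT16 and 8.07, 8.87, 8.64 and 8.32 at ZT4. It was the called member of the 16 tested licensing genes (0.80 ± 0.15, limma adjusted p = 0.0249), and it was called without ZT4 replicate 2 as well (0.93, adjusted p = 0.0294). In all, 8 of these 16 genes were higher at an unadjusted p under 0.05 (9.95% of all genes) and none lower, and 14 had positive differences. Their median was 0.43. The helicase subunits that were not called gave 1.16 for Mcm2 (limma adjusted p = 0.0680), 0.65 for Mcm4, 0.89 for Mcm3, 1.07 for Mcm5, 0.28 for Mcm6 and 0.27 for Mcm7. Without ZT4 replicate 2, Mcm5 was at 0.61, Mcm3 at 0.61 and Mcm2 at 1.35.

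At the replication fork, Rpa1, a subunit of the protein that coats single-stranded DNA, rose by 0.72 ± 0.16 (limma adjusted p = 0.0433). It was not called without ZT4 replicate 2 (0.56, adjusted p = 0.119) or with the sex covariate (0.68, adjusted p = 0.0742). All 21 tested fork genes had positive differences, of which 9 reached an unadjusted p under 0.05 (9.95% of all genes were higher at that level). Their median was 0.39, against a median of 0.02 over all genes. Rpa2 (1.07), the clamp loader subunit Rfc2 (0.86) and the ligase Lig1 (0.89) were not called, and without ZT4 replicate 2 they were at 0.64, 0.55 and 0.50. Without ZT4 replicate 2, 7 of the 21 were higher at that level and all 21 stayed positive; on that array fork genes averaged 7.22, against 7.61 over the 4 ZT4 arrays.

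Timeless, which steadies the replication fork and is listed with the clock, rose by 0.96 ± 0.17 (limma adjusted p = 0.0230). Timeless was called with the sex covariate (0.98, adjusted p = 0.0341) but not without ZT4 replicate 2 (0.90, adjusted p = 0.0519). It read 6.28, 6.41, 5.95 and 6.75 at ZT16 and 5.35, 5.21, 5.85 and 5.14 at ZT4. ZT16 replicate 3 lay just above ZT4 replicate 3, the 2 nearest arrays, and its partner Tipin gave 0.08. Ung, the glycosylase that removes uracil from DNA, read 7.55, 8.92, 8.15 and 8.94 at ZT16 and 7.34, 5.31, 6.58 and 7.22 at ZT4. The groups did not overlap, but ZT4 replicate 2 was far the lowest. The rise of 1.77 ± 0.37 (limma adjusted p = 0.0350) was 1.34 without that array (adjusted p = 0.0961) and 1.57 with the sex covariate (adjusted p = 0.0702). Ung was 1 of 9 nucleotide supply genes, of which 3 were higher at an unadjusted p under 0.05 (9.95% of all genes) and 1 was without ZT4 replicate 2. Of 17 excision and mismatch repair genes, Ddb2, which recognises ultraviolet damage, rose by 0.63 ± 0.14 (adjusted p = 0.0488). Ddb2 overlaps Acp2, a lysosomal phosphatase that rose by 0.66 (0.0249), in GRCm38.p6. Pkmyt1, a kinase that holds Cdk1 inactive before mitosis, rose by 0.73 ± 0.16 (0.0488). Without ZT4 replicate 2 Ddb2 (limma adjusted p = 0.101), Acp2 (0.0650) and Pkmyt1 (0.150) were not called. With the sex covariate they were not called either (0.0771, 0.0549 and 0.0600).

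Among genes of mitosis, Aspm and 5 of the 32 genes of the G2 phase and mitosis list fell at ZT16, and nearly all others had negative differences that did not pass the test. Aspm, a protein of the spindle pole, read 6.55, 5.78, 6.01 and 6.29 at ZT16 and 7.57, 8.32, 7.60 and 7.86 at ZT4. The 2 sets lay at least 1 log2 unit apart. Its fall of 1.68 on the log2 scale (SE 0.24; 3.20-fold, limma adjusted p = 0.0095) had the smallest p of all genes tested. It stayed called with the sex covariate (-1.55, adjusted p = 0.0197) and without ZT4 replicate 2 (-1.52, 0.0294), but not without ZT16 replicate 2.

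Of 32 tested genes in the list of the G2 phase and mitosis, 5 fell, where 0.209% of all tested genes were called lower. They were Ube2c, Ccnb2, Kif23, Cenpf and Cenpe. Cenpf, of the kinetochore, read 7.38, 6.82, 7.12 and 7.15 at ZT16 and 8.93, 8.30, 8.74 and 8.94 at ZT4. Its difference was -1.61 ± 0.33 (limma adjusted p = 0.0350). Cyclin B2 (Ccnb2), a partner of Cdk1, was at -1.48 ± 0.28 (0.0249), and on ZT16 replicate 1 it read 6.81, above the other ZT16 arrays (5.90 to 6.01). Ube2c, the conjugating enzyme that works with the anaphase-promoting complex, was at -1.29 ± 0.22 (0.0230), Kif23, a kinesin of the central spindle, at -1.0 ± 0.20 (0.0279) and Cenpe, a kinetochore kinesin, at -0.78 ± 0.17 (0.0362).

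Within that list 23 of 32 genes were lower at an unadjusted p under 0.05, where 7.72% of all genes were, and none was higher. The differences of 31 were negative, and the median was -0.77. For 16 of them the 4 ZT16 arrays all lay below the 4 ZT4 arrays, as they did for 577 of all 13383 genes. The 1 positive value was that of the phosphatase Cdc25b (0.31). Members that were not called included Tpx2 (-1.22, limma adjusted p = 0.0623), Cdc20 (-1.11), Nusap1 (-1.25), Top2a (-0.85) and Mki67 (-0.72). The mean over the 32 genes lay between 7.58 and 7.91 on the ZT4 arrays and between 6.69 and 7.39 on the ZT16 arrays. Without ZT4 replicate 2, 28 of the 32 were lower at that level and all 32 were negative, with a median of -0.83. With the sex covariate 20 were lower at that level. Without ZT4 replicate 2 the 1 called member was Nek2 (limma adjusted p = 0.0310), which was not called in the main fit. Ube2c, Ccnb2, Kif23 and Cenpf were then each at an adjusted p of 0.0519, and Cenpe at 0.108. With the sex covariate the 2 called were Ube2c (limma adjusted p = 0.0358) and Ccnb2 (0.0482). Kif23 (0.0541), Cenpf (0.0702) and Cenpe (0.0702) were not called there. A fit added after the data were seen kept the 13 arrays with Xist more than 1 log2 unit above the Y-linked genes. It held only 1 ZT4 array (replicate 4), so only its median is given, which was -0.77. In bulk samples such as these, fewer cells in mitosis and less RNA per cell cannot be told apart.

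Other called genes known from cell division fell as well, although they were on no list. Cdkn3, a phosphatase acting on cyclin-dependent kinases, was at -1.59 ± 0.33 (limma adjusted p = 0.0350), Ckap2, a microtubule-associated protein, at -1.17 ± 0.22 (0.0246), and Prr11 at -0.91 ± 0.18 (0.0253). Parpbp, which binds PARP1 and restrains homologous recombination, was at -0.93 ± 0.20 (0.0350). The 4 ZT16 arrays lay below the 4 ZT4 arrays for each of them. Without ZT4 replicate 2 Cdkn3 was called (limma adjusted p = 0.0348), but Ckap2 (0.0519), Prr11 (0.0580) and Parpbp (0.0881) were not. With the sex covariate Ckap2 was called (0.0482), but Cdkn3 (0.0702), Prr11 (0.0598) and Parpbp (0.0702) were not. Parpbp overlaps Pmch in GRCm38.p6.

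**Figure D2:**
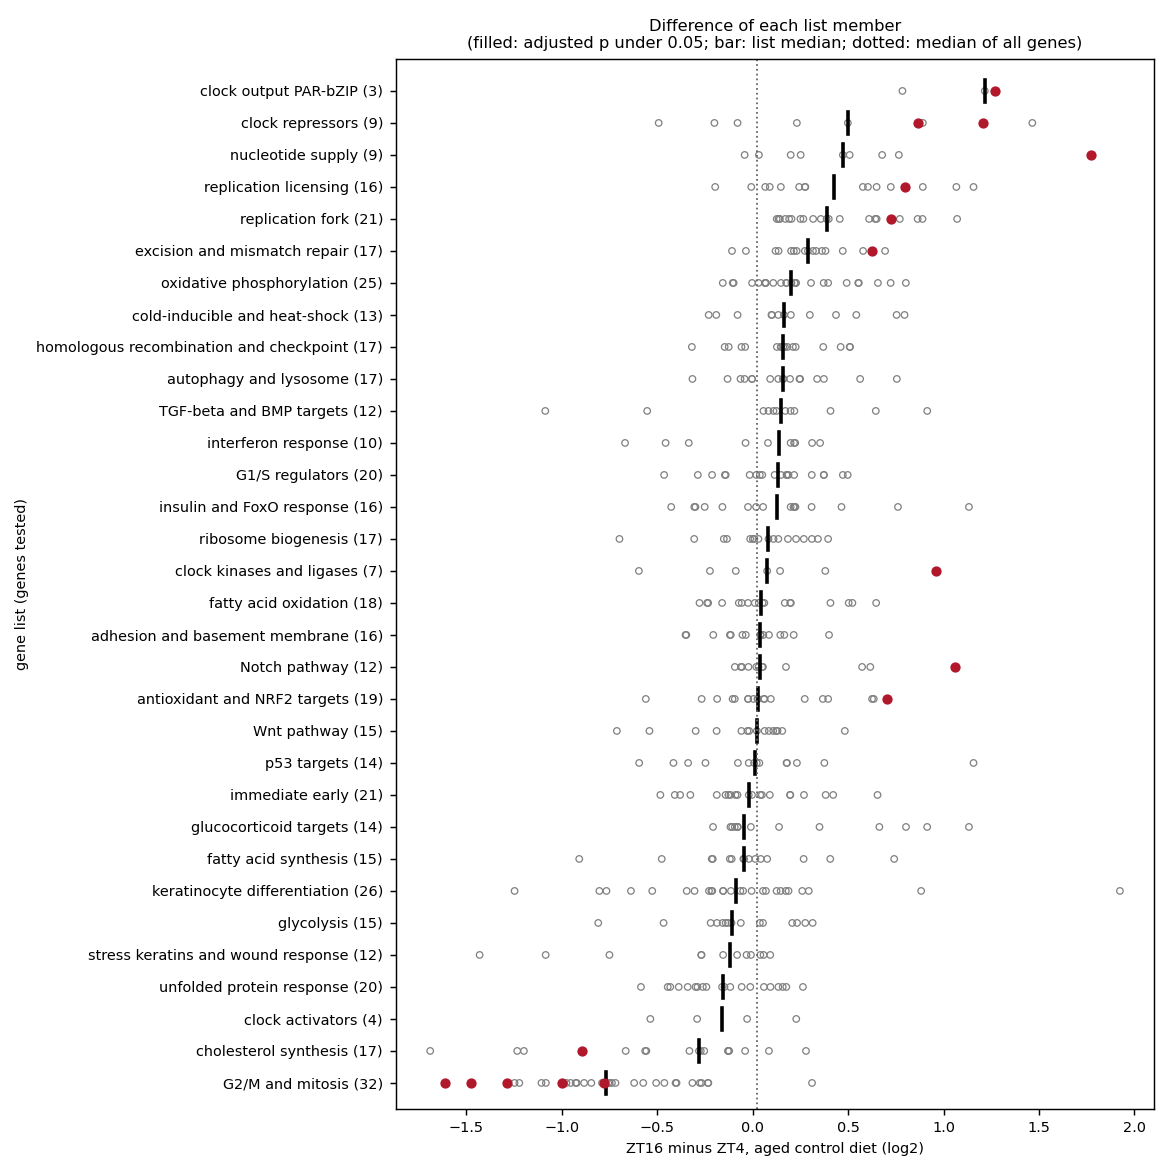
Difference between ZT16 and ZT4 (horizontal axis, log2) of every tested member of 32 gene lists (vertical axis, with the number tested), sorted by the list median (black bar). Filled points are called genes, open points are not, and the dotted line is the median of all genes (0.02). The G2 phase and mitosis list lies furthest to the left, with a median of -0.77, and the PAR-bZIP list furthest to the right.

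Among the remaining rises, the largest was that of Sphk2, a kinase that makes sphingosine 1-phosphate. It read 8.74, 9.90, 8.51 and 9.11 at ZT16 and 7.18, 7.18, 6.58 and 7.49 at ZT4. The groups were 1 log2 unit apart, and the rise was 1.96 ± 0.44 (3.88-fold, limma adjusted p = 0.0488). The values of Sphk2 in this report are those of its brighter probe set (mean 8.20 over all arrays). Its other probe set (mean 7.69) differed by only 0.66 between ZT16 and ZT4, and why the probe sets differ was not tested. Sphk2 overlaps Dbp in GRCm38.p6. Their means over the day ran alike, from 6.41 at ZT0 to 10.2 at ZT12 for Sphk2 and from 5.87 to 8.77 for Dbp. Signal from the overlap therefore cannot be told apart on that probe set. Without ZT4 replicate 2 the rise of Sphk2 was 1.98, no longer called (0.102).

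Pdxk, the kinase that activates vitamin B6, rose by 1.13 ± 0.19 (limma adjusted p = 0.0149). It read 8.16, 8.76, 8.36 and 8.54 at ZT16 and 7.67, 7.21, 7.27 and 7.15 at ZT4, and it was called with the sex covariate (0.0341) and without ZT4 replicate 2 (0.0348). Aldh3a1, an aldehyde dehydrogenase, rose by 1.31 ± 0.23 (0.0230). Its ZT4 arrays read 9.52, 8.49, 9.60 and 9.66 and its ZT16 arrays 11.1, 10.4, 10.6 and 10.4, so that replicate 2 stood alone below the rest; the rise was 1.04 without it (0.0491).

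Hes1, the transcriptional repressor that Notch signalling switches on, read 8.71, 8.73, 8.12 and 8.83 at ZT16 and 7.62, 7.34, 7.57 and 7.63 at ZT4. It rose by 1.06 ± 0.21 (limma adjusted p = 0.0300; 0.0813 without ZT4 replicate 2 and 0.0651 with the sex covariate). It was the called member of 12 Notch genes, whose median was 0.04. Rbpj, the DNA-binding partner of Notch, was at 0.62 (0.0684). Sod2, the superoxide dismutase of mitochondria, rose by 0.71 ± 0.13 (0.0246) as the called member of 19 antioxidant genes (median 0.03). It was called with the sex covariate (0.0341) but not without ZT4 replicate 2 (0.57, limma adjusted p = 0.0519).

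The other large rises were in Sec22c, a protein of transport between endoplasmic reticulum and Golgi (0.99 ± 0.19), the zinc finger gene Zfp707 (0.90 ± 0.16), Maco1 (0.86 ± 0.19), the filamin-binding Rflnb (0.84 ± 0.16) and the peptidase gene Npepl1 (0.82 ± 0.18), with limma adjusted p-values from 0.0230 to 0.0483. ZT4 replicate 2 was the lowest of the 8 arrays for each of these 5 genes. Maco1 read 7.41 there against 8.45 to 8.71 on the other ZT4 arrays, and Npepl1 7.51 against 8.62 to 8.77. Without that array they differed by 0.52 to 0.81 and none of the 5 was called (limma adjusted p from 0.0519 to 0.0580).

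Falls outside cell division were led by Sema3d, a secreted semaphorin, which read 7.66, 6.51, 7.37 and 7.58 at ZT16 and 8.52, 9.52, 8.62 and 8.23 at ZT4 (-1.45 ± 0.33, limma adjusted p = 0.0493). Slc16a9, a membrane transporter, was at -1.20 ± 0.24 (0.0293), Tmem269 at -1.10 ± 0.18 (0.0138) and Il12rb2, a chain of the interleukin 12 receptor, at -1.0 ± 0.21 (0.0362). Tmem269 was the steadiest of these, with ZT16 arrays from 6.04 to 6.20 below ZT4 arrays from 6.85 to 7.64, and was called with the sex covariate (0.0197) and without ZT4 replicate 2 (0.0348). Without that array Sema3d (limma adjusted p = 0.152), Slc16a9 (0.0564) and Il12rb2 (0.112) were not called. With the sex covariate Slc16a9 was called (0.0482), but Sema3d (0.0702) and Il12rb2 (0.0651) were not. Il12rb2 overlaps Serbp1 in GRCm38.p6, and tested T cell markers were not called. Olfr112, at -1.05 ± 0.24 (0.0488), read between 4.30 and 4.90 at ZT16, on either side of the filter on low levels. It was not called without ZT4 replicate 2 (limma adjusted p = 0.144) or with the sex covariate (0.0758).

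Sc5d, which catalyses a late step of cholesterol synthesis, fell by 0.90 on the log2 scale (SE 0.20, limma adjusted p = 0.0471). It read 6.65, 6.46, 6.27 and 6.57 at ZT16 and 7.23, 7.25, 7.84 and 7.21 at ZT4. The groups did not overlap, and ZT4 replicate 3 was the highest. Of 17 tested genes of that pathway, 15 had negative differences, and the median of the list was -0.28. At an unadjusted p under 0.05, 5 were lower (7.72% of all genes) and none higher (9.95%). Insig1 (-1.69, 0.114), Idi1 (-1.23) and Sqle (-1.20) had larger values than Sc5d but were not called; without ZT4 replicate 2 Insig1 was at -1.0, Idi1 at -0.96 and Sqle at -1.06. Sc5d was not called with the sex covariate (0.0764) or without ZT4 replicate 2 (0.0687), where 6 of the 17 were lower at an unadjusted p under 0.05.

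No member was called in 21 of the 32 lists of processes. Oxidative phosphorylation had 21 of 25 positive differences and a median of 0.20, but ZT4 replicate 2 averaged 9.13 over these genes where the highest ZT4 array averaged 10.3, and without it the median was -0.03 with 9 of 25 positive. Glucocorticoid targets had 4 of 14 higher at an unadjusted p under 0.05 (9.95% of all genes), while the median of that list was -0.04. Among the 4 were Ddit4 (1.13, limma adjusted p = 0.0680), Sgk1 (0.80, or 0.51 without ZT4 replicate 2), Tsc22d3 (0.66) and Fkbp5 (0.91). Of 26 genes of keratinocyte differentiation, 10 were positive and 16 negative, with Lor, a protein of the cornified envelope, at 1.92 ± 0.67 (0.147). Of 20 genes of the unfolded protein response, 5 were lower (7.72% of all genes) and none higher (9.95%) at an unadjusted p under 0.05.

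The called genes not described so far had smaller differences or no name. The 8 that rose, Ankrd10, Slc45a3, Tfap4, Zfp623, Baz1b, Slc6a9, Pitpnm2 and Slc66a1, differed by 0.47 to 0.79, and the 7 that fell, Vmn2r1, Pnliprp2, Zfp941, Cfap206, Olfr1508, Shisal1 and Smim13, by -0.72 to -0.57; they are named here after their values were seen. A further 5 called lower were transcripts without a gene name. Of the 58, 32 had other probe sets on the array, which ran in the same direction for 30, while 1 dim probe set each of Klk1 and Shisal1 ran the other way. That count is of direction only. Some other probe sets hardly moved or moved less: 0.08 for Pkmyt1, 0.29 for Zfp707, 0.28 for Ddb2, -0.38 for 1 of Slc16a9, and -0.05 and -0.06 for dim ones of Kif23 and Zfp941. Some moved more, such as those of Per2 (2.46), Tef (1.83) and Cenpe (-1.30). They were not tested on their own.

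The other times of day were examined next. Their 16 arrays enter none of the ZT16 and ZT4 means, but they share the estimate of the spread that decided which genes were called, so they are not fully independent of that choice. Of the 30 called higher genes, 16 had their highest mean at ZT16, 13 at ZT12 and 1 at ZT8, and 22 had their lowest at ZT4. Of the 28 called lower genes, 26 had their highest mean at ZT4 and 15 their lowest at ZT16; the ZT16 and ZT4 means entered the choice of these genes, so those counts are a description. When ZT12 and ZT20 were set against ZT0 and ZT8, 27 of the 30 higher genes were positive, where 60.81% of all genes were, and 21 of the 28 lower genes were negative, where 39.19% of all were. At an unadjusted p under 0.05, 11 of the 30 were higher at the dark times (5.57% of all genes) and 12 of the 28 lower (4.22%). In these arrays Xist was above the Y-linked genes on 5 of 9 at the dark times and 4 of 7 at the others.

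Between these neighbouring times 24 genes were called (limma, Benjamini-Hochberg, 0.179% of those tested), 14 higher and 10 lower at the dark times. Per2, Mthfd1l, an enzyme of mitochondrial folate metabolism, and the kallikrein Klk1 were among both these 24 and the 58. Per2 was higher by 0.81 ± 0.15 (adjusted p = 0.0349), Mthfd1l by 0.41 ± 0.08 (0.0349) and Klk1 by 0.42 ± 0.09 (0.0463), beside 1.21, 0.55 and 0.54 between ZT16 and ZT4. Tef was higher by 0.59 (0.161) and Aspm at -0.76 (0.114), not past the threshold. Hes1 was at -0.26 and Cdt1 at 0.04: their means were high at ZT8 (8.5 and 9.37), a light time.

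**Figure D3:**
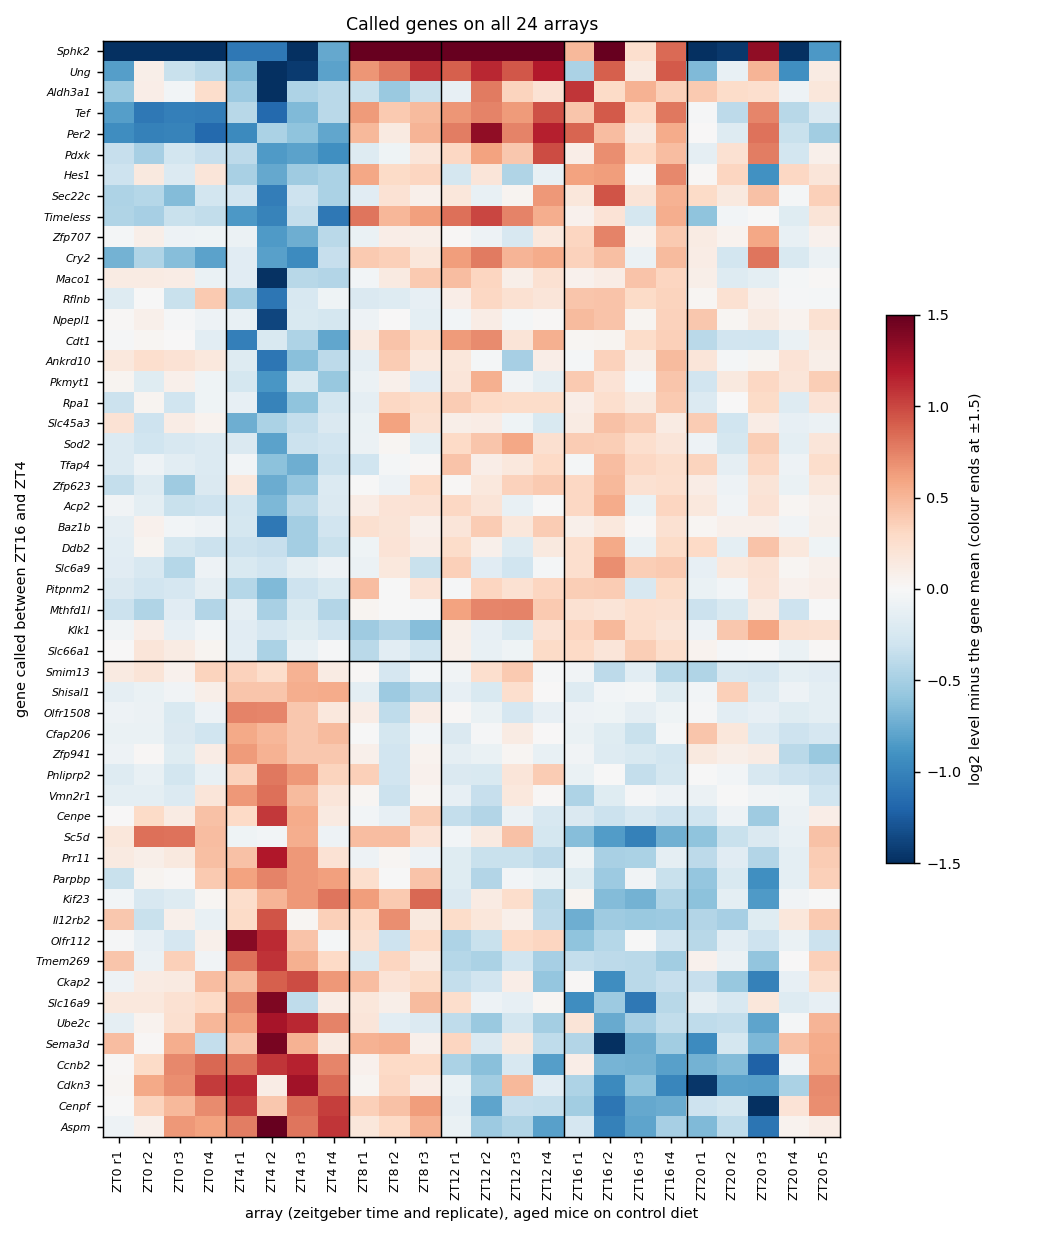
Log2 level minus the gene mean (colour, red higher, ends at ±1.5) of the 53 called genes with a gene name (rows, sorted by the ZT16 minus ZT4 difference) on the 24 aged control arrays (columns, ordered by time and replicate). The upper block of 30 genes is red at ZT16 and blue at ZT4 and the lower block the reverse; ZT4 replicate 2 has the deepest colour in many rows.

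In adult mice on the same diet, the difference between ZT16 and ZT4 was not shown to be unlike that of aged mice. No gene had a difference between the ages at an adjusted p under 0.05 (limma on all arrays of the series; 0 of 13383, 0%), 987 had an unadjusted p under 0.05, and the smallest adjusted p was 0.652. The 6 genes with the smallest p, none past the threshold, were Samd7, Vmn1r10, Sost, Qpct, Glipr1 and Pde3a, which were negative in aged and positive in adult mice (Vmn1r10 -0.82 and 0.36). Side by side, the aged and adult values in that fit were 1.21 ± 0.19 and 1.32 ± 0.19 for Per2, 1.27 ± 0.15 and 0.86 ± 0.15 for Tef, -1.68 ± 0.29 and -1.48 ± 0.29 for Aspm, and -1.61 ± 0.30 and -1.41 ± 0.30 for Cenpf. The 95% interval of the age difference was -0.64 to 0.42 for Per2, -0.02 to 0.84 for Tef, -1.02 to 0.63 for Aspm and -1.03 to 0.64 for Cenpf. Values were less alike for Hes1 (1.06 ± 0.22 and -0.01 ± 0.22) and Ung (1.77 ± 0.38 and 0.39 ± 0.38), whose age differences of 1.07 ± 0.32 and 1.39 ± 0.54 did not pass (limma adjusted p = 0.652 for each), although their 95% intervals, 0.45 to 1.70 and 0.31 to 2.46, lay above 0. Of the 58 called genes, 30 had an unadjusted p under 0.05 for the age difference; the aged arrays behind it are those that chose the 58. Among the 30 higher genes 27 were positive in adult mice (46.41% of all genes were), with a median of 0.21. Among the 28 lower genes 19 were negative there, with a median of -0.49, and more of all genes were negative than positive. The adult median of the G2 phase and mitosis list was -0.52.

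In aged mice under CR, whose food was reduced by 30%, the ZT16 minus ZT4 difference was another one for 50 genes (limma on all arrays of the series, Benjamini-Hochberg, 0.374% of those tested); it was higher on control diet for 32 and lower for 18. Arrays centred on their median gave 25 and 5, and a further quantile normalization 23 and 22. The count was 147 with the sex covariate, with 49 higher and 98 lower, the opposite majority, and leaving out 1 array moved it from 17 (CR ZT4 replicate 1 or 2) to 124 (control ZT4 replicate 1). The 8 genes with the smallest p were Sphk2, Tef, Dbp, Cry2, Cpt1a, Nr1d2, Per2 and Per3, of which 6 belong to the clock lists and Cpt1a is the gatekeeper of fatty acid entry into mitochondria. These values share the 8 aged control arrays with the comparison above. Of the 30 genes called higher at ZT16 on control diet, 12 were positive under CR (52.05% of all genes were), with a median of -0.04. Of the 28 called lower, 16 were negative under CR, with a median of -0.11.

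Sphk2 was at 1.96 ± 0.33 on control diet and -2.25 ± 0.35 under CR, a difference of 4.21 ± 0.48 (limma adjusted p = 2.32e-09). Under CR it read 7.29, 7.60, 6.53 and 7.0 at ZT16 and 8.79, 9.54 and 9.75 at ZT4, the reverse order of the control diet. Dbp was at 1.22 and -1.68 (difference 2.89 ± 0.46, 5.31e-05), Per3 at 1.47 and -0.93 (2.40 ± 0.47, 0.00392) and Cry2 at 0.87 and -0.76 (1.63 ± 0.28, 0.000455). Tef was at 1.27 and -0.25 (1.52 ± 0.23, 1.32e-05) and Per2 at 1.21 and -0.24 (1.45 ± 0.28, 0.00231). Nr1d2 was at 0.23 and -1.47 (1.70 ± 0.31, 0.000901) and Cpt1a at 0.41 and -1.18 (1.59 ± 0.28, 0.000623), so their differences lay mostly in the CR arrays.

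The called mitosis genes had negative values in both diets. Aspm was at -1.68 ± 0.29 on control diet and -1.48 ± 0.32 under CR (difference -0.20 ± 0.43, limma adjusted p = 0.801), Cenpf at -1.61 and -1.41 (-0.20 ± 0.44, 0.808) and Ccnb2 at -1.48 and -1.20 (-0.28 ± 0.43, 0.717). The median of the 32 mitosis genes was -0.77 on control diet and -0.50 under CR. The 95% intervals of these diet differences ran from -1.06 to 0.66 for Aspm, from -1.07 to 0.67 for Cenpf and from -1.14 to 0.58 for Ccnb2. They ran from -0.73 to 0.83 for Kif23 and from -0.81 to 0.18 for Cenpe. Ube2c was the 1 of the 6 whose interval lay on 1 side of 0: it was at -1.29 on control diet and -0.50 ± 0.26 under CR, a difference of -0.79 ± 0.35 with an interval from -1.49 to -0.10 (limma unadjusted p = 0.0256, adjusted p = 0.200). Intervals of this width do not show that the diets act alike. The PAR-bZIP list had a median of 1.22 on control diet and -0.25 under CR.

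**Figure D4:**
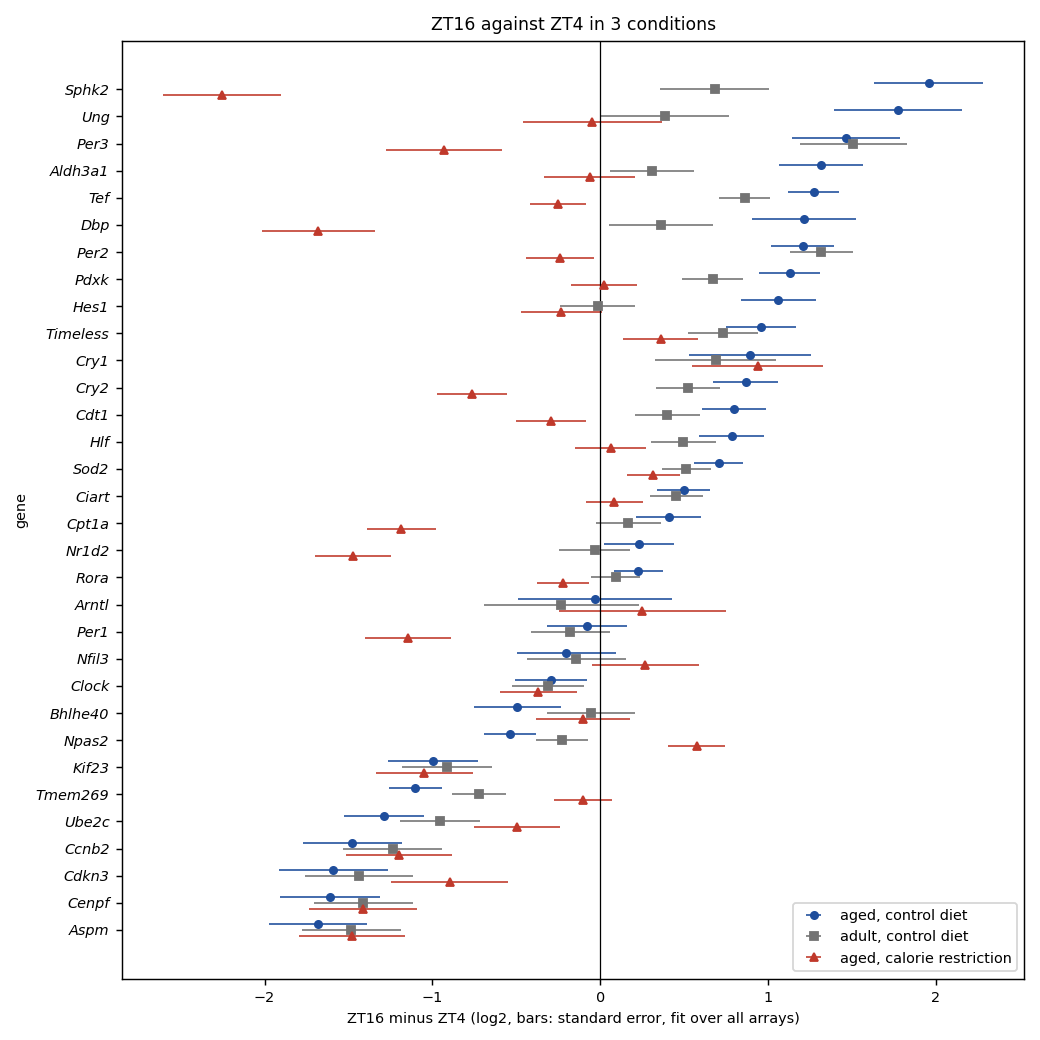
ZT16 minus ZT4 difference (horizontal axis, log2, bars: standard error in a fit over all arrays of the series) for clock genes, the genes that differed most by diet, and examples of replication, metabolism and mitosis (vertical axis). Circles are aged mice on control diet, squares adult mice on control diet and triangles aged mice under calorie restriction. Sphk2, Dbp and Per3 lie right of 0 for both control groups and left of 0 under restriction, whereas Aspm, Cenpf and Ccnb2 lie left of 0 in all 3.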

How the data were processed

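RNA of epidermal stem cells was amplified as cDNA from 25 ng and hybridised to Affymetrix mouse PM arrays, 1 sample per array, per the labels' protocols. The authors deposited log2 expression values made with RMA, per the submitters' processing notes, and these were used as deposited. Other versions and settings are not given in the sources used here. Probe sets with 1 gene symbol were kept (28898 of 45140; 551 carried several and 15691 none), with the brightest over all arrays for each gene. Genes with a mean under the 30th percentile (4.735) were left out, which left 13383 of 17097. Array medians lay between 5.466 and 5.714. The number of arrays limits the precision, and RMA pulls low levels together, so differences near background are understated.

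Tests were made with limma 3.58.1 in R 4.3.3 (lmFit and eBayes, two-sided, Benjamini-Hochberg adjustment over all genes tested, threshold 0.05). The main fit was also run on simulated data with independent noise of equal spread on every array. Those data held no array that stood apart and no sex difference, so they do not bear on either limit. The difference between ZT16 and ZT4 came from the 24 aged control arrays with a mean per time, and differences between conditions from all arrays. Nothing in the labels pairs the arrays or says that they came from separate cell preparations, so p-values measure the spread between these samples. Genes were named by rule: the 15 largest rises and falls among called genes, all tested genes of the 3 clock lists, up to 3 called members of each other list, and for each difference between conditions the 8 smallest p, or 6 where none passed. The genes and the 46 lists (550 of 666 listed genes tested) were chosen with earlier results of these data known. Alternatives were filters, probe set means, rescaling, sex, replicate block, other sets of arrays and leaving out each array. Promoter windows came from RefSeq (GRCm38.p6).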

Additional observations from a re-analysis of the deposited data

Results flagged for a closer look

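Single arrays far from the other 3 of their group were found 15 times among 142 groups of 4 (71 genes; about 1 in 20, or 7.1, would be so by chance). On ZT4 replicate 2, the array that stood apart, Aldh3a1 read 8.49 (next 9.52) and Npepl1 7.51 (next 8.62), while the unnamed transcript Gm19439 read 6.43. On ZT16 replicate 3, Hes1 read 8.12, Clock 5.99, Pitpnm2 7.69, Olfr1508 5.22 and 4930521O11Rik 5.68. On ZT16 replicate 1, Ccnb2 read 6.81, Il12rb2 7.40 and Npas2 8.21. Gm19439 read 5.19 on ZT16 replicate 2, Sc5d 7.84 and Ddb2 8.64 on ZT4 replicate 3, and 4921528I07Rik 4.86 on ZT4 replicate 4.

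The ZT16 minus ZT4 difference was unlike that of aged mice under calorie restriction for 50 genes by the limma test of the difference itself. The largest was that of Sphk2 (4.21), followed among the 8 smallest p-values by Dbp (2.89), Per3 (2.40), Nr1d2 (1.70), Cry2 (1.63), Cpt1a (1.59), Tef (1.52) and Per2 (1.45), in log2 units as control minus restricted. ZT4 in restricted mice had 3 arrays.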

How the results depend on the processing

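The 58 calls between ZT16 and ZT4 kept their direction under every alternative in which the gene was tested, but their number moved: 36 with a 50th percentile filter, 89 with a trended robust prior, 33 with the sex covariate, 115 in the fit of all arrays of the series (43 shared), and 0 to 312 when 1 array was left out. It was 0 in the 8 arrays alone (limma; 1316 at an unadjusted p under 0.05, smallest adjusted p 0.120), where fewer arrays estimate the spread. The 13 arrays with Xist more than 1 above the Y-linked genes, an alternative added after the data were seen, held only 1 ZT4 array (replicate 4). No count is therefore given for that fit, and it cannot show what part sex has in the calls. The 50 diet differences became 30 after median centring, 147 with the sex covariate (49 higher and 98 lower, against 32 and 18), and 17 to 124 when 1 array was left out. Without ZT4 replicate 2 the oxidative phosphorylation median went from 0.20 to -0.03. Other causes were not tested. The age difference gave 0 throughout.

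Replicate numbers were not shown to pair the arrays. Same-number correlations of deviations across genes were -0.16, -0.03, 0.39 and 0.01, and those of different numbers ran from -0.43 to 0.40. Deviations from means of 4 arrays cannot exclude pairing. With the number as a replicate block, 24 of 13383 genes were called between ZT16 and ZT4 (23 shared), 9 between the neighbouring times and 31 by diet.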
